A study of Mus musculus with 58 samples.

Results

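The 50 genes described here carry out or control cell division, and they are 50 of the 47643 genes in the count tables of 34 mouse microglia libraries. They are 24 genes of DNA replication, 23 genes of mitosis and the 3 D-type cyclins. They were chosen by name with earlier results of these data known, and all 50 were found in the tables. The replication genes encode the MCM helicase (Mcm2 to Mcm7), its loading and activating factors (Cdc6, Cdt1, Gins1, Gins2), enzymes that supply deoxynucleotides (Rrm1, Rrm2, Tyms, Tk1, Dut), proteins of the replication fork (Pcna, Fen1, Lig1, Prim1, Pola1), the E-type cyclins (Ccne1, Ccne2) and the transcription factors E2f1 and Mybl2. The mitosis genes encode cyclins and their kinase (Ccna2, Ccnb1, Ccnb2, Cdk1), mitotic kinases and checkpoint proteins (Aurka, Aurkb, Plk1, Bub1, Bub1b), the proteolysis factors Cdc20 and Ube2c, spindle, kinetochore and cytokinesis proteins (Cenpe, Cenpf, Kif11, Kif20a, Tpx2, Nusap1, Prc1, Hmmr, Birc5), the chromosome proteins Top2a and Mki67 and the transcription factor Foxm1.

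A cell that leaves rest makes D-type cyclins, whose kinases inactivate the retinoblastoma protein and release E2F factors, and E2F factors then switch on the replication genes. The mitosis genes are switched on later in the cycle, mainly through B-MYB and FOXM1, and the DREAM complex keeps both sets silent in resting cells. Microglia of the adult brain divide rarely, whereas microglia grown from newborn brain divide in culture in response to growth factors from the other glia.

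The study asked how tau and the NF-κB kinase IKKβ, encoded by Ikbkb, act on microglia. RNA was measured as QuantSeq 3′ mRNA-Seq, which reads each transcript from its 3′ side, and long genes therefore do not gather more counts than short ones. Primary microglia from wild-type newborn mice received vehicle (4 libraries) or were kept for 24 hours with tau fibrils (full length, 2 µg/ml, 4 libraries). Adult microglia came from the brains of 11-month-old male mice, 4 carrying the human P301S tau transgene under the prion promoter (PS19) and 4 without it (NTG), by selection of perfused tissue for CD11b. Primary IkbkbCA microglia (5 libraries) carried constitutively active Ikbkb behind a floxed stop in the Rosa locus, and a tamoxifen-inducible Cre knocked into Cx3cr1. The IkbkbWT controls (5 libraries) carried the same Ikbkb transgene without Cre. Primary Ikbkb-/- microglia (4 libraries) carried floxed Ikbkb and the same Cre, and their Ikbkb+/+ controls (4 libraries) carried floxed Ikbkb without Cre. All 4 Ikbkb groups were treated with 4-hydroxytamoxifen, so Cre and the loss of a Cx3cr1 allele come with both altered genotypes and cannot be told apart from them. The labels give no age, sex or litter for the cultures and do not say whether the libraries of a group came from separate cultures, so p-values measure the spread between these libraries.

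Total counts were 1672052 to 8349128 per library. The targeted gene followed the labels in the knockout, where Ikbkb was 18.7 to 24.7 CPM (counts scaled to the size of the library) in the Ikbkb-/- libraries and 45.6 to 55.2 CPM in the Ikbkb+/+ libraries. In IkbkbCA it was 45.0 to 60.4 CPM against 40.4 to 58.8 CPM in IkbkbWT. That log2 fold change was 0.17 (Benjamini-Hochberg FDR = 0.405, edgeR quasi-likelihood test). The paper reports raised Ikbkb mRNA in IkbkbCA primary microglia by quantitative PCR. All 10 microglial markers were present in every group, and their summed level was 24357 to 38222 CPM in adult and 4133 to 13082 CPM in cultured libraries. PS19 replicate 1 stood apart from the other PS19 libraries, with 177 CPM of Xist, a transcript of the inactive X chromosome, against 1.80 to 31.1 CPM, although all adult mice were labelled male. The same library also held 123 CPM of the Y-linked Ddx3y, against 101 to 223 CPM in the other PS19 libraries. Xist was 26.4 to 31.1 CPM in NTG. The IkbkbCA and IkbkbWT libraries fell into 3 sets by their summed neuronal and oligodendrocyte-lineage markers, namely replicates 1 and 2, replicate 3, and replicates 4 and 5 of each group. The Y-linked Ddx3y also differed between cultures, from 155 to 173 CPM in Ikbkb-/- and from 35.0 to 69.4 CPM in Ikbkb+/+, and it was 143 to 177 CPM in IkbkbWT replicates 1 to 3, 1.15 and 2.04 CPM in IkbkbWT replicates 4 and 5 and 49.3 to 85.9 CPM in IkbkbCA. Results without PS19 replicate 1, and with the 3 sets or Ddx3y as a covariate, are given below.

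Promoter sequences are shown first because replication and mitosis genes are known to be read through different short DNA elements. Windows from 250 bases before to 50 bases after the RefSeq transcription start on GRCm38.p6 were held for 20 of the 24 replication genes, 18 of the 23 mitosis genes and 1 of the 3 D-type cyclins, and a gene with several starts has several windows, which gave 24 for replication and 19 for mitosis. The E2F-type letters TTTCCCGC, TTTGGCGC, TTTCGCGC or TTTGCCGC, searched on both strands, were in 8 of the 24 replication windows (33.3%), 1 of the 19 mitosis windows (5.26%) and 2.26% of all 32851 windows. The letters of the cell cycle homology region, TTTGAA or TTCGAA on either strand, were in 15 of the 19 mitosis windows (78.9%), 3 of the 24 replication windows (12.5%) and 19.2% of all windows. The CCAAT box, CCAAT on either strand, was in 17 of the 19 mitosis windows (89.5%), 11 of the 24 replication windows (45.8%) and 37.4% of all windows. A match describes the letters and not a bound site. The genes Mcm4, Gins1, Gins2, Ccne2, Ccna2, Aurkb, Kif20a, Tpx2, Foxm1, Ccnd1 and Ccnd2 had no window.

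The windows of Mcm5 (chr8:75109259-75109558, plus strand) and Mcm3 (chr1:20820263-20820562, minus strand) show the E2F-type letters of 2 helicase genes, with each match in capitals. In Mcm5 the 2 matches overlap on opposite strands.
Mcm5: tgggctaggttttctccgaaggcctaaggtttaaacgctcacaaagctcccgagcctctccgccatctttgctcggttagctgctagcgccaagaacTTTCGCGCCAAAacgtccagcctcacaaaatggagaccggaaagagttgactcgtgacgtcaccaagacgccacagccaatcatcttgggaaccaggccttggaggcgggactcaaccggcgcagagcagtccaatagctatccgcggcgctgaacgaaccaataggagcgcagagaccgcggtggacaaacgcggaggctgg
Mcm3: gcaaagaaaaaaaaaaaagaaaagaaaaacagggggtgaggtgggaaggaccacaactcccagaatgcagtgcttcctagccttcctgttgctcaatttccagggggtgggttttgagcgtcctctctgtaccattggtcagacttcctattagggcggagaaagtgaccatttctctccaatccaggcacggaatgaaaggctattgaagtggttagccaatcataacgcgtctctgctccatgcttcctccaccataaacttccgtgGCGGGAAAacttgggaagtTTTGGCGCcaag
The windows of Cdk1 (chr10:69352863-69353162, minus strand), Top2a (chr11:99024140-99024439, minus strand) and Nusap1 (chr2:119618048-119618347, plus strand) belong to 3 mitosis genes on which the comparisons below turn, with the letters of the cell cycle homology region and of the CCAAT box in capitals on either strand. Cdk1 held 5 such matches and Top2a held 10. Nusap1 held 0, which says only that these letters are not in this window.
Cdk1: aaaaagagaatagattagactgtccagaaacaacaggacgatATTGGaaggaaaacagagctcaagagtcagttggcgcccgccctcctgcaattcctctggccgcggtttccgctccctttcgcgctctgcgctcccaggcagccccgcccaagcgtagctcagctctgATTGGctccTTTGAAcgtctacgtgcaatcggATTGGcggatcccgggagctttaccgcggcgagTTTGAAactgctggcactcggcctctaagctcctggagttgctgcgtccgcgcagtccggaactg
Top2a: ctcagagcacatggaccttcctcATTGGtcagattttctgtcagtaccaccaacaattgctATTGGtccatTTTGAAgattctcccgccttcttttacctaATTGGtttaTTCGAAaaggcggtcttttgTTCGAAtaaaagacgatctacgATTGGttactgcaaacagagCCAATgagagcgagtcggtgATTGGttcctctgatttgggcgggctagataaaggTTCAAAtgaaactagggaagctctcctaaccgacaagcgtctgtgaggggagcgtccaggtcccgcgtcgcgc
Nusap1: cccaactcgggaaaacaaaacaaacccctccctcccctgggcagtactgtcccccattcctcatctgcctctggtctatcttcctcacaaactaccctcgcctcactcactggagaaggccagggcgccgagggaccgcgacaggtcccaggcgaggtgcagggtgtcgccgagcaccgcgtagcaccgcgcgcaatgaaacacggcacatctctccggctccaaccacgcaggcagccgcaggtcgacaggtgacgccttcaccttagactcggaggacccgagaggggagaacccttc

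Across the 8 groups, adult microglia had the lowest summed level of the 23 mitosis genes and control cultures the highest. The sum was 164 to 214 CPM in the 4 NTG libraries, against 797 to 878 CPM in vehicle, 795 to 996 CPM in IkbkbWT and 968 to 1242 CPM in Ikbkb+/+. The altered cultures lay between these, at 364 to 406 CPM with tau fibrils, 424 to 715 CPM in IkbkbCA and 414 to 559 CPM in Ikbkb-/-. The ranges of IkbkbCA and Ikbkb-/- overlap, that with tau fibrils lies below both, and none of the 3 overlaps its own control group or NTG. The PS19 libraries were at 127, 142, 213 and 623 CPM, and replicate 1 held the highest value. The summed level of the 24 replication genes covered a narrower range, from 377 to 443 CPM in NTG to 813 to 1033 CPM in Ikbkb+/+. The replication sum was 2.02 to 2.33 times the mitosis sum in NTG, 1.51 to 1.71 times with tau fibrils, 1.05 to 1.31 times in IkbkbCA and 1.06 to 1.20 times in Ikbkb-/-, and 0.728 to 0.965 times in the vehicle, IkbkbWT and Ikbkb+/+ cultures. In PS19 it was 1.16 to 3.69 times, which spans the ranges of NTG and of the tau-treated cultures. In these bulk samples, fewer dividing cells and less RNA of these genes per cell cannot be told apart.

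**Figure D1:**
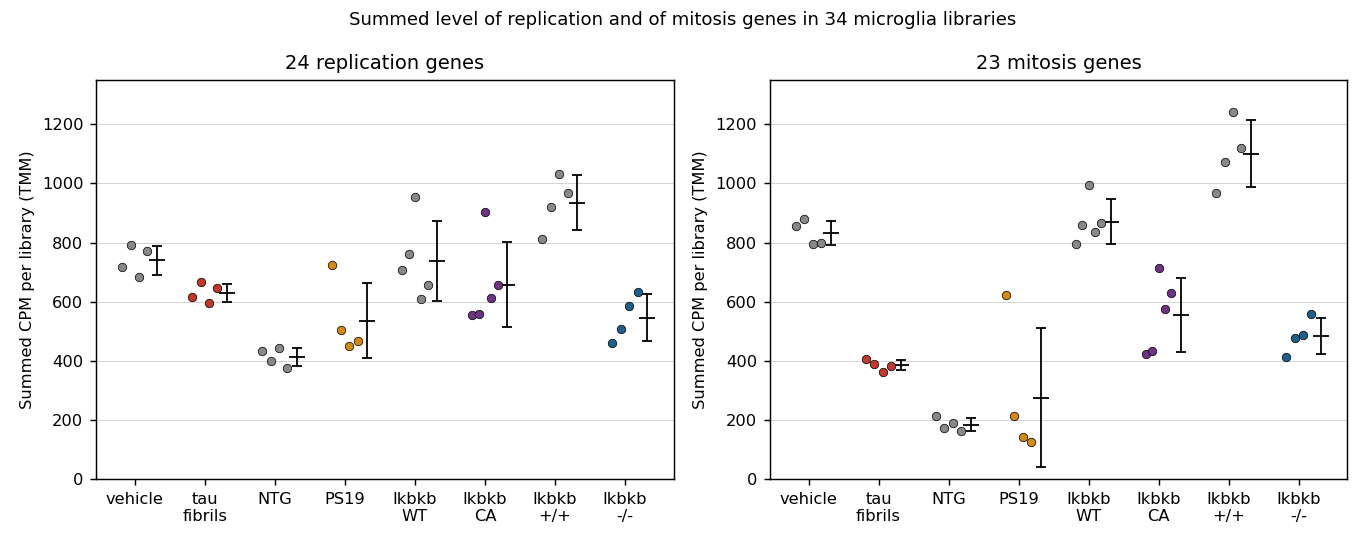
Summed level of the replication genes and of the mitosis genes in each of the 34 libraries, in TMM-normalized CPM by group. Each point is a library and bars give the group mean and SD. The mitosis sum lies at 164 to 214 CPM in NTG and at 795 to 1242 CPM in the 3 control cultures, and PS19 replicate 1 lies at 623 CPM.

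In tau-treated microglia the mitosis genes fell together, while most replication genes did not pass the test. The mitosis sum fell from a mean of 832 CPM to 386 CPM, a ratio of 0.464, and the replication sum went from 741 to 630.5 CPM, a ratio of 0.851. Of the 21 mitosis genes that passed the filter on low counts, 19 fell and 0 rose at a Benjamini-Hochberg FDR under 0.05 (edgeR quasi-likelihood test), where 15.4% of all 10408 genes tested fell. Of the 20 replication genes that passed the filter, 6 fell and 0 rose. The median log2 fold change was -1.14 for mitosis, -0.24 for replication and -0.01 for all genes tested. Bub1 and Aurkb of mitosis and Gins1, Tk1, Ccne2 and Mybl2 of replication did not pass the filter, and Bub1b (log2 fold change -0.25) and Foxm1 (log2 fold change -0.61) were tested without being called. In 17 mitosis genes and in the 4 replication genes Ccne1, Rrm1, Rrm2 and Dut every tau-treated library was below every vehicle library, as it was in 14.2% of all genes, and in 1 replication gene, the origin licensing factor Cdt1, every treated library was above, as in 14.1%. These counts use CPM scaled within the comparison, and Cdt1 overlaps on the scale of all 34 libraries, at 57.8, 52.7, 53.1 and 61.7 CPM with tau fibrils and 48.4, 55.3, 37.0 and 45.2 CPM with vehicle. No member was called higher, where 14.5% of all genes rose.

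Cdk1, the kinase that drives entry into mitosis, was at 49.6, 38.7, 43.2 and 50.6 CPM with tau fibrils and at 92.9, 101, 89.3 and 123 CPM with vehicle. Every tau-treated library lay below every vehicle library, and the log2 fold change was -1.12 ± 0.15 (SE, FDR = 2.26e-06, edgeR quasi-likelihood test). Nusap1, a protein that bundles spindle microtubules, was at 9.27, 7.00, 9.51 and 11.1 CPM with tau fibrils and at 26.1, 24.0, 31.4 and 25.9 CPM with vehicle. These groups did not overlap either, and Nusap1 fell by 1.496 ± 0.24 on the log2 scale (FDR = 2.32e-05). The kinetochore protein gene Cenpf fell by 1.35 on the same scale (FDR = 2.63e-06), the survivin gene Birc5 by 1.30 (FDR = 3.10e-05), the anaphase activator Cdc20 by 1.23 (FDR = 2.58e-05) and the B-type cyclin Ccnb1 by 1.41 (FDR = 3.83e-04), all by edgeR's test. Mki67, the proliferation antigen Ki-67, fell by 1.14 (FDR = 9.99e-04) and Top2a, which untangles replicated chromosomes, by 0.82 (FDR = 1.42e-04).

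Rrm2, Rrm1, Dut, Ccne1, Mcm4 and Cdc6 were the replication genes that fell. Rrm2, the regulated subunit of ribonucleotide reductase, was at 20.2, 16.9, 12.4 and 17.4 CPM with tau fibrils and at 60.9, 54.1, 34.4 and 47.7 CPM with vehicle. The groups did not overlap, and Rrm2 fell by 1.53 ± 0.21 on the log2 scale (FDR = 2.69e-06, edgeR). The log2 fold change was -0.66 for its partner Rrm1, -0.69 for the dUTPase gene Dut, -1.12 for the cyclin gene Ccne1, -0.70 for the helicase gene Mcm4 and -1.25 for the origin factor Cdc6. In contrast, Pcna, the sliding clamp of the fork, was at 54.0, 58.9, 68.4 and 81.0 CPM with tau fibrils and at 79.9, 56.5, 61.0 and 53.8 CPM with vehicle. These ranges overlap almost fully, with a log2 fold change of 0.12 ± 0.17 (FDR = 0.653), and the values were 0.12 ± 0.23 for Mcm2 (FDR = 0.745) and -0.05 ± 0.21 for Mcm5 (FDR = 0.893) by the same test. Without tau_fibrils replicate 3, 2 of 20 replication genes fell, where 11.7% of all genes did.

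The same tau-treated libraries held less RNA of astrocyte, neuronal and oligodendrocyte-lineage markers than the vehicle libraries. The summed level of 8 astrocyte markers was 388 to 455 CPM with tau fibrils and 751 to 821 CPM with vehicle, that of 6 neuronal markers was 95.9 to 129 CPM against 203 to 259 CPM, and that of 8 oligodendrocyte-lineage markers was 328 to 375 CPM against 603 to 702 CPM. The summed level of the 10 microglial markers was 7036 to 8261 CPM with tau fibrils and 4133 to 5129 CPM with vehicle. Of these 10, 5 were called higher and 0 lower, and 3 had a negative log2 fold change. The 4 border macrophage markers summed to 105 to 112 CPM against 56.5 to 96.1 CPM, and 1 of the 2 tested was called higher. Called lower were 5 of 8 astrocyte, 5 of 6 neuronal and 4 of 7 oligodendrocyte-lineage markers tested. Of all genes 15.4% fell and 14.5% rose. The share of reads that matched no counted feature was 16.3% to 22.2% in the treated libraries against 23.3% to 29.1% in their controls. The part of these differences in the changes of the mitosis genes, the replication genes and the D-type cyclins was not tested.

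In adult microglia no replication or mitosis gene differed between PS19 and NTG mice by the test, and 8 of all 11323 genes tested (0.0707%) were called, all higher in PS19 and 0 (0%) lower. Of the 21 replication and 21 mitosis genes that passed the filter, 0 were called in either direction by edgeR's quasi-likelihood test, while at an unadjusted p under 0.05 there were 4 replication genes and 1 mitosis gene, against 977 of all genes tested. DESeq2 and limma-voom called 0 of these genes as well. The genes Cdc6, Ccne1, Mybl2, Bub1 and Aurkb did not pass the filter, and Mybl2 had at most 2 counts in any NTG library. The median log2 fold change was 0.35 for replication and 0.43 for mitosis, against 0.00 for all genes tested. In the 3 replication genes Cdt1, E2f1 and Mcm7 every PS19 library was above every NTG library, as in 3.29% of all genes, and in 0 members every PS19 library was below, as in 2.47%.

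The PS19 libraries were spread widely around NTG in the mitosis genes. Top2a was at 129, 47.5, 19.2 and 19.1 CPM in PS19 and at 42.5, 39.4, 37.2 and 33.7 CPM in NTG. Replicates 1 and 2 were above every NTG library and replicates 3 and 4 were below every NTG library, and the log2 fold change was 0.42 ± 0.50 (FDR = 0.854). Mki67, at 38.9, 17.9, 4.02 and 3.76 CPM in PS19 and at 10.9, 14.3, 11.4 and 5.71 CPM in NTG, was spread in the same way. Without PS19 replicate 1 the median log2 fold change of the mitosis genes turned from 0.43 to -0.31 and the ratio of the mean mitosis sums from 1.49 to 0.869, while the median of the replication genes was 0.28 and 0 members were called, where 0.0443% of all genes were called higher and 0.00887% lower. Replicate 1 also had 427 CPM of 6 granulocyte markers against 952 to 2587 CPM in the other PS19 libraries, 744 CPM of 4 border macrophage markers against 248 to 341 CPM and 260.5 CPM of the oligodendrocyte-lineage markers against 91.6 to 125 CPM.

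The replication genes with the lowest p in PS19 were helicase and E2F genes. Mcm6 was at 56.1, 25.3, 42.5 and 55.1 CPM in PS19 and at 28.0, 22.7, 19.4 and 17.7 CPM in NTG. All PS19 libraries except replicate 2 were above every NTG library, and the log2 fold change was 0.97 ± 0.27 (FDR = 0.312, edgeR). E2f1 was at 25.5, 10.7, 9.04 and 9.16 CPM in PS19 and at 6.22, 6.77, 6.73 and 5.71 CPM in NTG, so that the groups did not overlap, with a log2 fold change of 1.02 ± 0.38 (FDR = 0.478). The values were 1.03 ± 0.38 for the helicase activator Gins2 (FDR = 0.464) and 0.67 ± 0.25 for Mcm7 (FDR = 0.478). Gins2 was at 46.0, 18.7, 16.5 and 15.2 CPM in PS19, highest in replicate 1, and at 12.4, 8.36, 10.1 and 14.8 CPM in NTG. Across 16 alternatives the log2 fold change was 0.51 to 1.29 for Gins2 and 0.52 to 1.24 for E2f1. It was 0.85 to 1.22 for Mcm6 and 0.54 to 0.77 for Mcm7. Mcm6 was called in 2 of the 16 alternatives. Among them was the fit without PS19 replicate 2, the PS19 library that overlapped NTG (1.18, FDR = 0.0369, edgeR). In that fit 39 of all 11798 genes were called higher and 15 lower.

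In IkbkbCA microglia part of the mitosis genes fell, and no replication gene was called. The mitosis sum was 424, 434, 715, 576 and 628 CPM in IkbkbCA and 795, 861, 996, 837 and 867 CPM in IkbkbWT. Every IkbkbCA library was below every IkbkbWT library, with a ratio of the means of 0.638. Of the 23 mitosis genes 12 fell and 0 rose, where 7.16% of all 11697 genes tested fell, and the median log2 fold change was -0.63 against -0.05 for all genes. Of the 24 replication genes 0 were called by edgeR's quasi-likelihood test and 1 had an unadjusted p under 0.05, namely Pola1, the catalytic subunit of the primase-polymerase (-0.59 ± 0.19, FDR = 0.0638), which DESeq2 called. In 9 mitosis genes and 0 replication genes every IkbkbCA library was below every IkbkbWT library, as in 6.34% of all genes. The count of 12 was 6 without IkbkbCA replicate 1, IkbkbCA replicate 2 or IkbkbWT replicate 5, and 7 without IkbkbCA replicate 4 or IkbkbWT replicates 2, 3 or 4, where 4.29% to 6.42% of all genes fell with a library left out.

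Mki67 was at 20.7, 19.7, 27.4, 23.5 and 18.2 CPM in IkbkbCA and at 47.7, 46.9, 55.8, 46.6 and 55.3 CPM in IkbkbWT. The groups were far apart, and Mki67 fell by 1.21 ± 0.12 on the log2 scale (FDR = 4.99e-05, edgeR). Cenpe, the kinetochore motor, was at 30.2, 25.9, 36.7, 38.3 and 39.7 CPM in IkbkbCA and at 68.8, 64.1, 66.1, 63.8 and 65.6 CPM in IkbkbWT. It did not overlap either and fell by 0.95 ± 0.11 (FDR = 1.86e-04), and Nusap1 fell by 0.75 (FDR = 9.30e-04), Ccnb2 by 0.76 (FDR = 0.00513), the hyaluronan receptor and spindle protein gene Hmmr by 0.78 (FDR = 0.0150), the spindle assembly factor Tpx2 by 0.63 (FDR = 0.0171), Top2a by 0.71 (FDR = 0.0324) and Cdk1 by 0.53 (FDR = 0.0421). The call of Top2a was lost without any single library other than IkbkbCA replicate 3 (FDR = 0.0517 to 0.0812), and that of Cdk1 without IkbkbCA replicates 1, 2 or 4 or IkbkbWT replicates 1, 2, 3 or 5 (FDR = 0.0641 to 0.140). Ccnb1 was not called, at -0.34 ± 0.18 (FDR = 0.248).

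Within the 3 sets of IkbkbCA and IkbkbWT libraries the mitosis sum was lower in IkbkbCA each time. The ratio of IkbkbCA to IkbkbWT was 0.518 in replicates 1 and 2, 0.718 in replicate 3 and 0.707 in replicates 4 and 5, and 22, 20 and 22 of the 23 mitosis genes were lower in IkbkbCA. The replication sum had ratios of 0.757, 0.944 and 1.00, with 22, 14 and 15 of the 24 replication genes lower. With the 3 sets as a covariate, chosen after the data were seen, 16 mitosis genes fell, and so did the 2 replication genes Lig1, the DNA ligase of the lagging strand, and Pola1, where 13.3% of all genes fell. The neuronal marker sum was 226 to 269 CPM in replicates 4 and 5 of both groups and 13.9 to 30.2 CPM in the other 6 libraries.

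**Figure D2:**
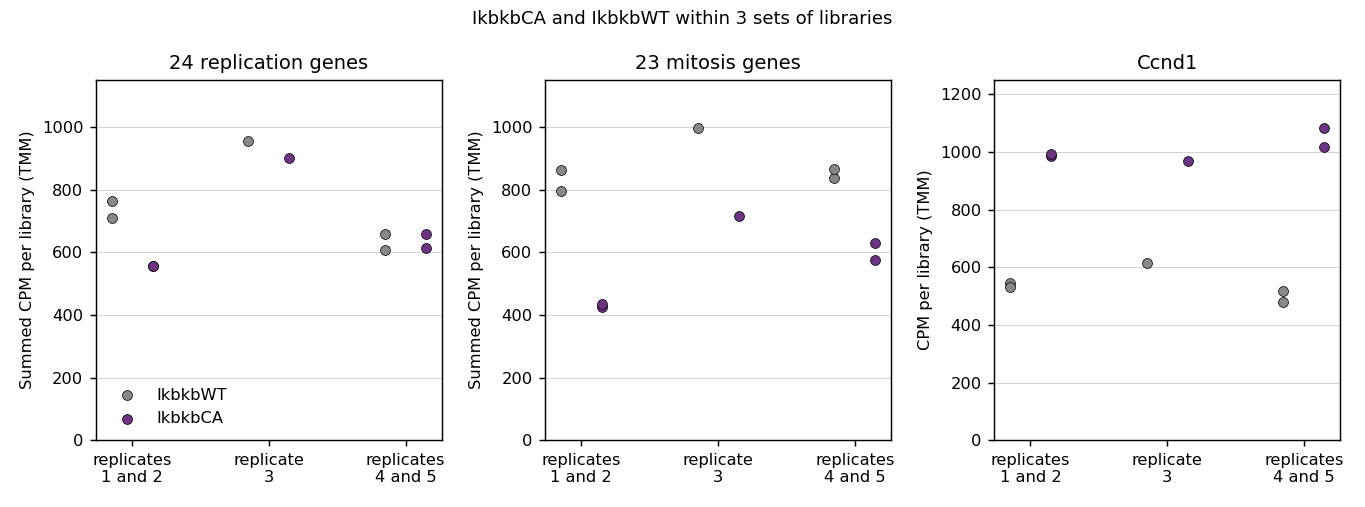
Summed TMM-normalized CPM of the replication genes and of the mitosis genes, and the CPM of Ccnd1, in each IkbkbCA and IkbkbWT library, grouped into replicates 1 and 2, replicate 3, and replicates 4 and 5. Each point is a library, and the ratio of IkbkbCA to IkbkbWT is 0.518, 0.718 and 0.707 for the mitosis sum and 1.84, 1.57 and 2.11 for Ccnd1.

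In Ikbkb-/- microglia both classes fell. The mitosis sum was 414, 477, 488 and 559 CPM in Ikbkb-/- and 968, 1073, 1242 and 1119 CPM in Ikbkb+/+, a ratio of the means of 0.440. The replication sum was 461, 507, 586 and 634 CPM in Ikbkb-/- and 813, 921, 1033 and 969 CPM in Ikbkb+/+, a ratio of 0.585. Neither sum overlapped between the genotypes. Of the 23 mitosis genes 22 fell, of the 23 replication genes that passed the filter 19 fell and 0 rose in either class, where 6.96% of all 11242 genes tested fell (edgeR quasi-likelihood test). With all libraries thinned to a common depth, 14 of 22 mitosis and 12 of 21 replication genes fell, where 3.22% of all genes did. The median log2 fold change was -1.24 for mitosis, -0.84 for replication and 0.00 for all genes. The genes that were not called were Cdc20 (-0.61, FDR = 0.0512), E2f1 (-0.24), Cdt1 (-0.09), Dut (-0.53) and Prim1 (-0.51), and Mybl2 did not pass the filter. In 21 mitosis and 19 replication genes every Ikbkb-/- library was below every Ikbkb+/+ library, as in 8.67% of all genes.

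Mki67 was at 16.4, 20.3, 21.01 and 20.0 CPM in Ikbkb-/- and at 51.1, 58.8, 63.6 and 60.8 CPM in Ikbkb+/+. The genotypes were far apart, and Mki67 fell by 1.56 ± 0.11 on the log2 scale (FDR = 7.45e-09, edgeR). Top2a was at 80.2, 85.4, 99.4 and 101 CPM in Ikbkb-/- and at 213, 222, 249.6 and 237 CPM in Ikbkb+/+. It fell by 1.31 ± 0.09 without overlap (FDR = 4.27e-09), and Nusap1 fell by 1.52 (FDR = 5.77e-08), Hmmr by 1.41 (FDR = 1.398e-06), Birc5 by 1.404 (FDR = 6.44e-07), Cenpe by 1.24 (FDR = 2.94e-07), Cdk1 by 0.84 (FDR = 5.56e-04) and Ccnb1 by 0.64 (FDR = 0.0233).

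The genes of the helicase, the clamp and the ligase fell in the knockout. Mcm5 was at 9.28, 14.2, 20.1 and 24.0 CPM in Ikbkb-/- and at 31.1, 35.8, 42.9 and 34.0 CPM in Ikbkb+/+, and fell by 1.00 ± 0.18 (FDR = 7.97e-04, edgeR). Pcna was at 28.4, 36.4, 35.2 and 31.7 CPM in Ikbkb-/- and at 54.4, 49.98, 66.6 and 52.0 CPM in Ikbkb+/+, and fell by 0.73 ± 0.11 (FDR = 1.72e-04). Both genes were lower in every Ikbkb-/- library. Mcm2 fell by 0.78 (FDR = 6.53e-04), Mcm3 by 0.70 (FDR = 7.94e-05) and Lig1 by 0.93 (FDR = 8.32e-06). The E-type cyclin Ccne2, which starts S phase, was at 2.73, 3.56, 2.80 and 3.48 CPM in Ikbkb-/- and at 8.40, 10.0, 13.51 and 13.01 CPM in Ikbkb+/+. It did not overlap and fell by 1.82 ± 0.23 on the log2 scale (FDR = 1.57e-05), and Rrm1 fell by 1.16 (FDR = 1.70e-05), Rrm2 by 1.35 (FDR = 6.32e-05) and Pola1 by 0.96 (FDR = 5.88e-05).

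The summed level of 4 border macrophage markers was lower in both altered genotypes, at 480 to 1019 CPM in IkbkbCA against 1296 to 1711 CPM in IkbkbWT, and at 413 to 716 CPM in Ikbkb-/- against 1436 to 1692 CPM in Ikbkb+/+. In Ikbkb-/- the oligodendrocyte-lineage markers summed to 671 to 777 CPM against 425 to 535 CPM in Ikbkb+/+, with 4 of 8 called higher. The 5 endothelial markers summed to 167 to 220 CPM against 67.3 to 122 CPM, and of the 3 tested 1 was called higher and 1 lower. The 6 granulocyte markers summed to 8.17 to 12.6 CPM in Ikbkb-/- against 7.83 to 408 CPM in Ikbkb+/+, and the 2 tested were called lower. The share of reads that matched no counted feature was 12.4% to 13.99% in IkbkbCA against 15.9% to 18.7% in IkbkbWT. The part of these differences in the results was not tested. In one fit of the 18 libraries, 20 mitosis and 15 replication genes fell in Ikbkb-/- and 14 and 1 in IkbkbCA, and these 4 counts were the same with the level of Ddx3y as a covariate. In the first fit 3.49% of all genes fell in Ikbkb-/- and 8.83% in IkbkbCA, and with Ddx3y 3.19% and 8.98%. Xist was at 5.65 to 10.4 CPM in Ikbkb-/- and at 243 to 401 CPM in Ikbkb+/+. Neither Xist nor Ddx3y overlapped between these genotypes, so the covariate cannot separate this difference from the genotype.

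The effects of IkbkbCA and Ikbkb-/- differed in size for 3 of these genes. In the fit of the 18 libraries, the log2 fold change in IkbkbCA minus that in Ikbkb-/- was above 0 for all 24 replication and all 23 mitosis genes, with medians of 0.67 and 0.62 against -0.04 for all genes. The difference was called higher for 1 replication gene and 2 mitosis genes, where 2.23% of all 12352 genes were. Ccna2, the cyclin of S phase and early mitosis, was at 17.1, 13.6, 29.1, 21.7 and 22.4 CPM in IkbkbCA and at 27.6, 23.7, 26.8, 28.6 and 24.4 CPM in IkbkbWT, which overlap. In Ikbkb-/- it was at 13.6, 12.1, 16.3 and 17.8 CPM against 36.2, 33.9, 39.7 and 33.7 CPM in Ikbkb+/+, which do not, and the difference was 0.90 ± 0.24 (FDR = 0.0415, edgeR). The difference was 0.79 ± 0.16 for Nusap1 (FDR = 0.00957) and 0.97 ± 0.25 for Rrm1 (FDR = 0.0418). Leaving out single libraries gave 0 to 3 replication genes and 1 to 3 mitosis genes, and the call was lost in 16 of 25 alternatives for Rrm1, 15 of 25 for Ccna2 and 1 of 25 for Nusap1. Among these losses, 13 for Rrm1 and 12 for Ccna2 came from leaving out 1 library.

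The comparisons of tau with vehicle, IkbkbCA with IkbkbWT and Ikbkb-/- with Ikbkb+/+ share no library, and 11 mitosis genes fell in all of them, as did 67 of the 9845 genes tested in each (0.681%). These were Birc5, Ccnb2, Cdk1, Cenpe, Cenpf, Hmmr, Mki67, Nusap1, Prc1, Top2a and Tpx2, which are 57.9% of the 19 that fell with tau, 91.7% of the 12 that fell in IkbkbCA and 50% of the 22 that fell in Ikbkb-/-. No replication gene fell in all of these comparisons, since 0 were called in IkbkbCA. The calls of Top2a and Cdk1 in IkbkbCA were lost in 9 of 20 alternatives each.

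**Figure D3:**
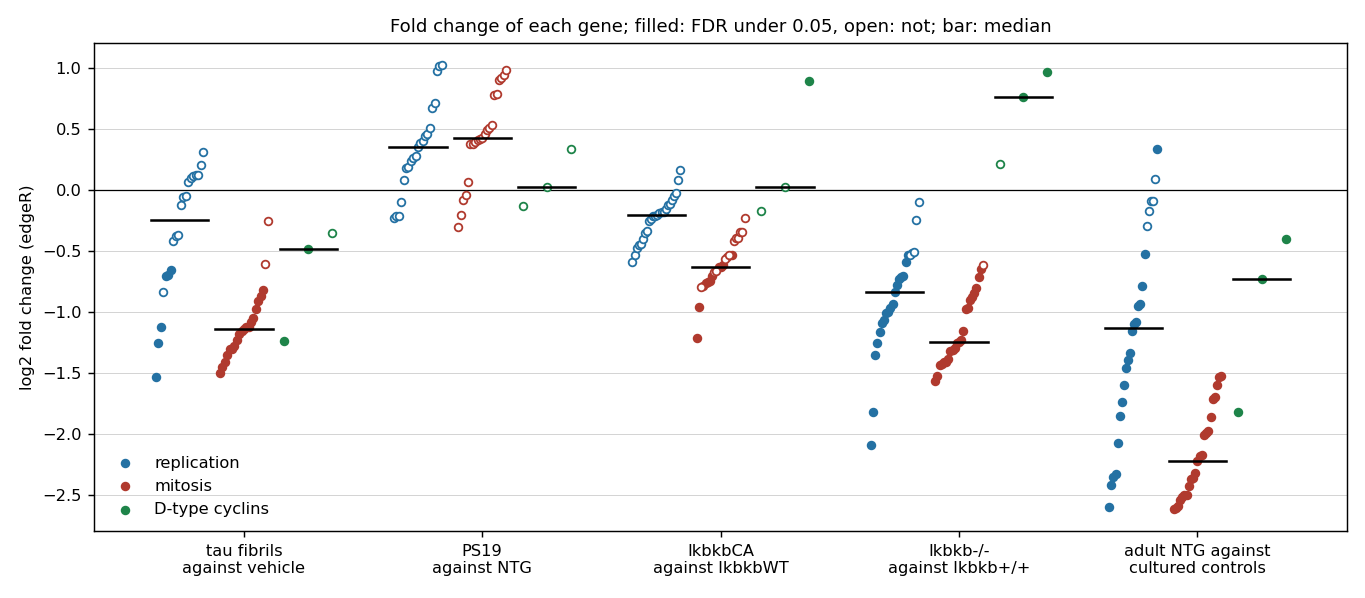
Log2 fold change of each replication, mitosis and D-type cyclin gene in 5 comparisons, with a filled point where the FDR was under 0.05 and a bar at the median of the class. The mitosis medians are -1.14 with tau, 0.43 in PS19, -0.63 in IkbkbCA, -1.24 in Ikbkb-/- and -2.22 in adult against cultured microglia.

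The D-type cyclins were called in both directions. Ccnd1 (cyclin D1; GRCm38 chr7:144929931-144939925, minus strand) was at 985, 992, 969, 1017 and 1083 CPM in IkbkbCA and at 546, 530.3, 617, 478 and 516 CPM in IkbkbWT. Every IkbkbCA library was above every control, and Ccnd1 rose by 0.90 ± 0.08 on the log2 scale (FDR = 3.23e-05, edgeR), as the only one of the 3 D-type cyclins called and where 7.31% of all genes rose and 6.38% had every IkbkbCA library above the controls. In Ikbkb-/- it was at 742, 749.8, 1193 and 1231 CPM against 491, 535, 505 and 491 CPM in Ikbkb+/+. Replicates 1 and 2 were lower than replicates 3 and 4, all were above the controls, and Ccnd1 rose by 0.97 ± 0.14 (FDR = 6.36e-05), where 7.64% of all genes rose and 9.44% had every Ikbkb-/- library above the controls. With tau fibrils it was at 582, 602, 507 and 577 CPM against 854, 863, 839 and 707 CPM with vehicle. Here it was lower in every treated library and fell by 0.48 ± 0.12 (FDR = 0.00345). Thus Ccnd1 moved against the mitosis genes in both Ikbkb genotypes and with them under tau. In PS19 it was at 457, 475, 323 and 409 CPM against 466, 424, 419 and 434 CPM in NTG, which overlap (-0.13 ± 0.18, FDR = 0.872).

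Ccnd2 (cyclin D2; GRCm38 chr6:127125162-127152193, minus strand) varied most between experiments. It was at 1038, 997, 868 and 838 CPM with tau fibrils and at 2177, 2522, 2265 and 2106 CPM with vehicle. It fell by 1.24 ± 0.13 on the log2 scale without overlap (FDR = 1.19e-08, edgeR). The summed astrocyte, neuronal and oligodendrocyte-lineage markers were also lower with tau fibrils, and their part in the fall of Ccnd2 was not tested. In the other cultures Ccnd2 was between 24.9 and 366 CPM, and in adult libraries between 53.7 and 115 CPM. The IkbkbWT libraries were at 24.9, 32.8, 142, 303 and 366 CPM and the IkbkbCA libraries at 53.8, 68.7, 83.7, 277 and 301.3 CPM, lowest in replicates 1 and 2 and highest in replicates 4 and 5 of both genotypes, and the log2 fold change was -0.17 ± 0.74 (FDR = 0.917). The ratio of IkbkbCA to IkbkbWT was 2.12 in replicates 1 and 2, 0.589 in replicate 3 and 0.864 in replicates 4 and 5. In Ikbkb-/- Ccnd2 was at 36.6, 44.4, 72.6 and 103 CPM against 43.8, 38.1, 36.9 and 39.7 CPM in Ikbkb+/+. The first pair overlaps the controls and the other pair lies above them, and Ccnd2 was called higher (0.77 ± 0.21, FDR = 0.0211), a call lost in 8 of 17 alternatives, among them without Ikbkb-/- replicate 3 (FDR = 0.0657) or 4 (FDR = 0.129) and without Ikbkb+/+ replicate 2 (FDR = 0.0598) or 3 (FDR = 0.0706).

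Ccnd3 (cyclin D3; GRCm38 chr17:47505051-47599691, plus strand) varied least of the 3 in culture. It was at 58.9, 82.0, 56.7 and 43.9 CPM with tau fibrils and at 68.5, 68.3, 94.5 and 86.8 CPM with vehicle, and was not called (-0.35 ± 0.17, FDR = 0.137). The groups overlapped in IkbkbCA (0.02 ± 0.12, FDR = 0.931), in Ikbkb-/- (0.22 ± 0.11, FDR = 0.214) and in PS19 (0.33 ± 0.20, FDR = 0.670). Each of these cyclin genes overlaps an exon of another gene on the opposite strand, as do 16 of the 50 genes in all, and the strand setting of the counting was not stated.

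**Figure D4:**
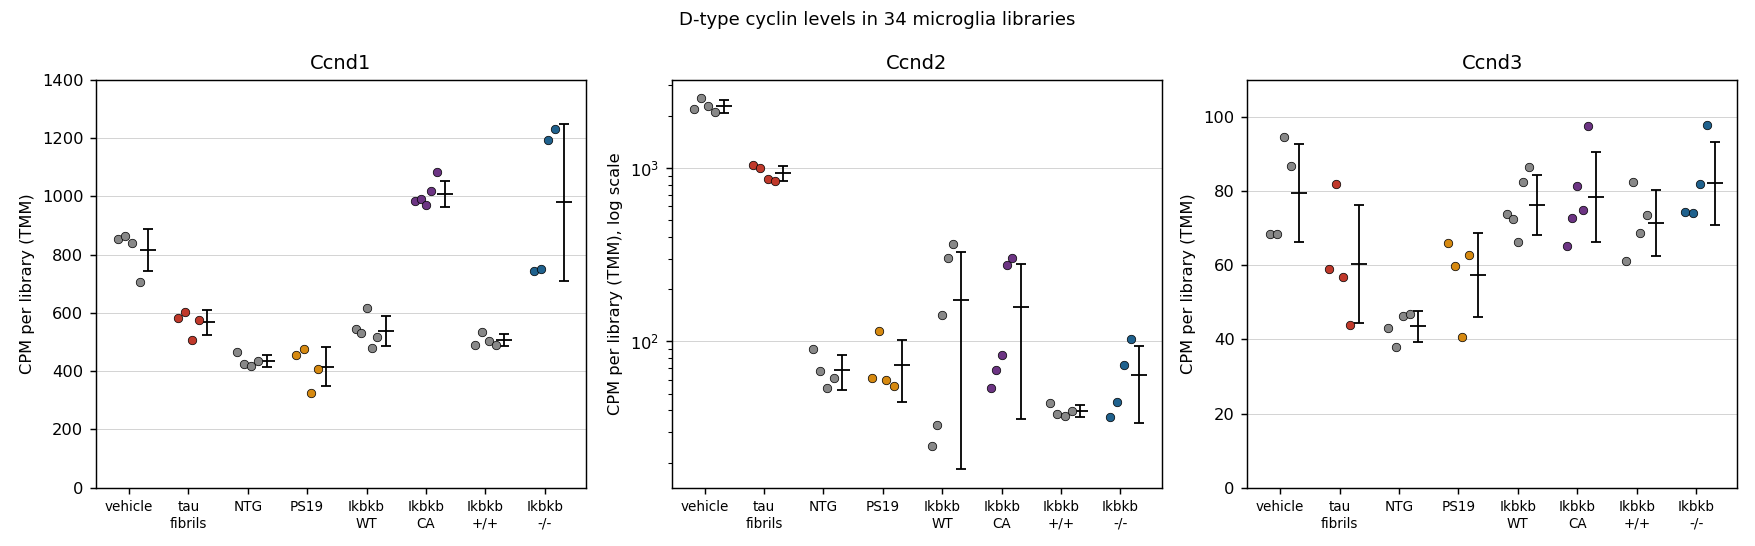
Level of Ccnd1, Ccnd2 and Ccnd3 in each of the 34 libraries, in TMM-normalized CPM by group, with the mean and SD and a log axis for Ccnd2. Ccnd1 lies at 969 to 1083 CPM in IkbkbCA and at 478 to 617 CPM in IkbkbWT, and Ccnd2 lies at 2106 to 2522 CPM in vehicle and at most at 1038 CPM in every other group.

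Adult NTG microglia were then compared with the mean of the 3 control cultures, in a fit of 17 libraries that shares its groups with the comparisons above. Age, isolation and culture cannot be told apart here. All 23 mitosis genes and 18 of the 24 replication genes were lower in adult microglia, where 30.8% of all 13004 genes were lower, and 1 replication gene was higher, where 30.0% were (edgeR quasi-likelihood test). The median log2 fold change was -2.22 for mitosis, -1.13 for replication and -0.03 for all genes. The mean mitosis sum of NTG was 0.198 of the cultured mean and the replication sum was 0.515 of it. Against each control culture alone, every mitosis gene tested was lower, namely 21 against vehicle, where 31.3% of all genes were lower, 23 against IkbkbWT (28.3%) and 23 against Ikbkb+/+ (27.1%). The 6 granulocyte markers summed to 1534 to 2132 CPM in NTG and to 1.57 to 408 CPM in the 13 control cultures, all 6 being called higher. The oligodendrocyte-lineage markers summed to 129 to 144 CPM in NTG against 425 to 4513 CPM, with 7 of 8 called lower, and all 5 endothelial markers were called higher, at 221 to 357 CPM against 33.5 to 123 CPM. The part of these cells was not tested.

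Cdk1 was at 15.0, 15.9, 22.5 and 15.4 CPM in NTG, and the lowest of the 13 control cultures was at 89.3 CPM. It was lower by 2.59 ± 0.16 on the log2 scale (a log2 fold change of -2.59, FDR = 2.66e-11, edgeR), and the log2 fold change was -2.61 for Nusap1 (FDR = 2.70e-10), -2.50 for Cenpe (FDR = 8.19e-13), -2.51 for Ccnb1 (FDR = 3.64e-08), -2.17 for Top2a (FDR = 2.58e-11) and -1.98 for Mki67 (FDR = 9.89e-09). Every mitosis gene had a log2 fold change between -2.61 and -1.52.

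The replication genes were less uniform, with log2 fold changes from -2.60 to 0.34. Rrm2 was at 2.59, 2.39, 5.05 and 0.571 CPM in NTG, below all control cultures, which had at least 7.38 CPM, and its log2 fold change was -2.60 ± 0.30 (FDR = 2.62e-07, edgeR). E2f1 followed at -2.33 ± 0.19 (FDR = 1.66e-09), Dut at -2.07 (FDR = 7.72e-07), Gins2 at -1.85 (FDR = 6.27e-07) and Lig1 at -1.60 (FDR = 3.30e-07). Pcna, by contrast, was at 31.6, 51.8, 39.1 and 42.2 CPM in NTG, within the range of the IkbkbWT cultures (33.1 to 57.5 CPM) apart from its lowest library. Every NTG library was below every vehicle library (53.8 to 79.9 CPM), and the Ikbkb+/+ cultures were at 49.98 to 66.6 CPM. Pcna was not called (-0.30 ± 0.15, FDR = 0.0936), but 4 of 28 alternatives called it lower, among them the fit without NTG replicate 2 (FDR = 0.0298, edgeR). The others not called were Mcm4, Gins1, Tyms and Fen1, at -0.17 to 0.09.

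Mcm3 was the replication gene called higher in adult microglia. It was at 91.7, 82.4, 122 and 89.6 CPM in NTG, 48.9, 41.1, 60.6 and 59.4 CPM in vehicle, 102, 105, 101, 67.3 and 75.2 CPM in IkbkbWT, and 91.3, 114, 126 and 114 CPM in Ikbkb+/+. NTG was above vehicle and overlapped the other cultures, and the log2 fold change was 0.34 ± 0.13 (FDR = 0.0337, edgeR). It was 0.92 against vehicle alone, 0.21 against IkbkbWT alone and -0.09 against Ikbkb+/+ alone, and the call was lost without Ikbkb+/+ replicate 1, NTG replicate 1 or 3, or vehicle replicate 1 or 2.

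All 3 D-type cyclins were called lower in adult microglia, where 30.8% of all genes were. The log2 fold change was -0.40 ± 0.08 for Ccnd1 (FDR = 3.21e-04), -1.81 ± 0.49 for Ccnd2 (FDR = 0.00340) and -0.73 ± 0.12 for Ccnd3 (FDR = 2.08e-05) by edgeR's test. The result for Ccnd2 rested on the vehicle cultures, since its log2 fold change was -5.03 against vehicle, -1.27 against IkbkbWT and 0.89 against Ikbkb+/+, the last being called higher. Ccnd1 was at -0.87 against vehicle and was not called against IkbkbWT (-0.20) or Ikbkb+/+ (-0.10). Ccnd3, at 43.0, 37.8, 46.3 and 46.8 CPM in NTG, was called lower against each of these cultures, where 27.1% to 31.3% of all genes were.

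Further genes of the same pathways were counted as lists of known members, which were also chosen with earlier results of these data known. The shares of all genes that fell were 15.4% with tau, 7.16% in IkbkbCA and 6.96% in Ikbkb-/-. Of 24 other replication genes, 2 of 19 tested fell with tau, 0 of 17 in PS19, 0 of 23 in IkbkbCA and 10 of 23 in Ikbkb-/-, and 0 rose in these 4 comparisons. Of 28 other mitosis genes, 13 of 21 tested fell with tau, 0 of 20 were called in PS19, 16 of 27 fell in IkbkbCA and 24 of 27 in Ikbkb-/-. The exception in each of these was Pttg1, the separase inhibitor securin, which rose by 1.25 ± 0.16 on the log2 scale with tau (FDR = 4.59e-07), by 1.01 ± 0.16 in IkbkbCA (FDR = 0.00128) and by 1.28 ± 0.10 in Ikbkb-/- (FDR = 6.16e-08, edgeR). In adult against cultured microglia, 12 of 23 other replication genes and 25 of 27 other mitosis genes were lower, where 30.8% of all genes were, and Slbp, the histone mRNA binding protein gene (1.89), and Espl1, the separase gene (2.12), were higher.

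A further list held 23 genes that control the cycle before and around S phase in either direction, among them inhibitors of cyclin-dependent kinases, the retinoblastoma family, E2F factors, kinases such as Cdk2, Cdk4 and Wee1, the Cdc25 phosphatases and Myc. With tau 2 rose and 1 fell among 17 tested, against 14.5% and 15.4% of all genes, and 0 of 18 were called in PS19, against 0.0707%. In IkbkbCA 2 rose and 3 fell of 21, against 7.31% and 7.16%, and in Ikbkb-/- 1 rose and 7 fell of 22, against 7.64% and 6.96%. Cdkn1a, which encodes the cyclin-dependent kinase inhibitor p21, was at 588, 632, 566 and 564 CPM with tau fibrils and at 382, 414, 383 and 366 CPM with vehicle. It was higher in every treated library and rose by 0.65 ± 0.12 (FDR = 1.18e-04, edgeR). It was at 627, 750.2, 709.6, 675 and 649 CPM in IkbkbCA against 251, 269, 359, 254 and 212 CPM in IkbkbWT, and at 617, 597, 683 and 757 CPM in Ikbkb-/- against 167, 201, 183 and 194 CPM in Ikbkb+/+. The groups did not overlap in either experiment, and Cdkn1a rose by 1.33 ± 0.13 (FDR = 4.19e-05) and by 1.84 ± 0.09 (FDR = 4.93e-11).

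In adult microglia Cdkn1a was low. It was at 55.4, 40.6, 71.8 and 72.5 CPM in NTG, below every culture, with a log2 fold change of -2.09 ± 0.15 against the control cultures (FDR = 2.12e-10, edgeR). Cdkn2c, the p18 inhibitor, was also lower in adult microglia (-2.05 ± 0.31, FDR = 7.70e-06, edgeR) and fell in Ikbkb-/- (-1.13 ± 0.21, FDR = 8.98e-04). It was not called with tau (-0.59), in PS19 (0.80) or in IkbkbCA (-0.81), although 4 of 20 alternatives called it in IkbkbCA. Cdkn1b, the p27 inhibitor, was called in none of the comparisons with tau, PS19, IkbkbCA and Ikbkb-/-, with log2 fold changes of -0.20 to 0.13, and Rb1, the retinoblastoma gene, was called only in adult against cultured microglia (0.62 ± 0.11, FDR = 3.58e-05).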

How the data were processed

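The 34 libraries of mouse microglia were grouped by their labels, and the series' 24 cortex samples were not used here. Per the labels and the methods, QuantSeq 3′ reads were mapped to GRCm38 with GENCODE annotation on the BlueBee platform. The submitters' processing notes name STAR, RSEM, edgeR and limma. The authors deposited raw counts as whole numbers for 47643 Ensembl genes, without normalization. The lines for reads not counted on a gene were left out of the library sizes, and reads that matched no counted feature were 12.4% to 38.3%, differing between groups. The counting's strand setting was not stated. Reads are not molecules, so depth covers counting error only.

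Members and gene lists were chosen with earlier results of these data known. Each comparison was fitted on its own libraries with edgeR 4.0.16 in R 4.3.3, with TMM normalization, filterByExpr (minimum count 10, minimum total 15) and the quasi-likelihood test, and genes were called at a Benjamini-Hochberg FDR under 0.05 over all genes tested. The difference of the Ikbkb genotypes used 18 libraries and the adult comparison 17. Levels are TMM-normalized CPM over all 34 libraries, and the counts of groups without overlap use the CPM of that comparison. The SE was the log2 fold change divided by the square root of F. Named in each comparison were the D-type cyclins, 7 fixed genes (Mki67, Top2a, Ccnb1, Cdk1, Pcna, Mcm2, Mcm5), the 6 replication and 6 mitosis genes with the lowest FDR, any called member that moved against its class, Cdkn1a, Cdkn1b, Cdkn2c, Rb1, Ikbkb and Cx3cr1. Other genes named were chosen after their values were seen. Among the 56 pairs of libraries within groups, 0 were identical. The procedure was tested on simulated data.

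Alternatives were RLE normalization, total-count scaling, DESeq2 1.42.0, limma-voom (limma 3.58.1), no filter on low counts, a stricter one (10 counts or more in all libraries of a group), thinned counts, one fit of the 18 libraries, age as a covariate in PS19, single control cultures and each library left out. Added after the data were seen were the 3 sets of libraries and Ddx3y as covariates. Promoters are RefSeq windows on GRCm38.p6.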

Additional observations from a re-analysis of the deposited data

Results flagged for a closer look

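Among 96 series of libraries of a single group tested, each a named gene in a group of 4 or 5, 8 held a library whose gap to its nearest neighbour was large against the range of its group, and chance gives this in about 1 in 20 groups. Among the mitosis genes these were Top2a in IkbkbWT replicate 3 (212 CPM, against 157 to 158 CPM in the other 4), Ccnb1 in PS19 replicate 1 (14.3 CPM, against 1.15 to 2.59 CPM) and Cdk1 in NTG replicate 3 (22.5 CPM, against 15.0 to 15.9 CPM). Among the replication genes they were Pcna (50.6 CPM) and Mcm2 (34.3 CPM) in IkbkbCA replicate 3, the library that formed a set of its own with IkbkbWT replicate 3, and Mcm2 in vehicle replicate 2 (22.4 CPM, against 16.3 to 16.8 CPM). Among the D-type cyclins they were Ccnd1 in vehicle replicate 4 (707 CPM, the lowest of its group) and Ccnd2 in PS19 replicate 2 (115 CPM, the highest of its group).

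The effect of the genotype differed between IkbkbCA and Ikbkb-/- for Rrm1 (difference of log2 fold changes 0.97, FDR = 0.0418), Ccna2 (0.90, FDR = 0.0415) and Nusap1 (0.79, FDR = 0.00957) in edgeR's test of the difference itself. The call was lost in 16 of 25 alternatives for Rrm1, 15 of 25 for Ccna2 and 1 of 25 for Nusap1.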

How the results depend on the processing

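Of 2985 recomputed log2 fold changes of named genes, 2798 kept their direction and their side of the threshold, 108 lost a call, 23 gained one and 56 turned direction. No paired analysis was possible because the labels give the libraries no shared replicate numbers, and the 3 sets of IkbkbCA and IkbkbWT libraries, formed from marker levels after the data were seen, were used as a covariate in its place. In tau-treated microglia, total-count scaling lowered the median of all genes from -0.01 to -0.16 and gave 1057 genes higher and 2254 lower against 1506 and 1602, and in IkbkbCA it gave 753 and 1252 against 855 and 837; the causes of the changes listed here were not tested.

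Leaving out single libraries gave 2 to 5 replication genes lower with tau (2 without tau_fibrils replicate 3, where 11.7% of all genes fell). It gave 0 to 1 lower in IkbkbCA (1 without IkbkbCA replicate 3) and 6 to 14 mitosis genes lower in IkbkbCA, where 4.29% to 6.42% of all genes fell. It gave 0 to 1 replication genes higher in PS19 (1 without PS19 replicate 2, where 39 of all 11798 genes were higher). In adult microglia it gave 0 to 1 higher, where 3548 to 4044 of all genes were. For the difference between the Ikbkb genotypes it gave 0 to 3 replication genes (3 without IkbkbWT replicate 3) and 1 to 3 mitosis genes called, where 209 to 298 of all genes were called higher. Thinning all libraries to a common depth gave 3 replication genes lower with tau, where 1376 of all 9886 genes were lower. It gave 12 replication and 14 mitosis genes lower in Ikbkb-/-, where 3.22% of all genes were. In IkbkbCA 1 replication gene was lower, where 674 of 11072 genes were, and in adult microglia 0 were higher, where 2793 of 10858 genes were. There were 0 called differences in either class, where 132 of 10463 genes were called higher. For the replication genes lower in IkbkbCA, DESeq2 gave 1 (854 of all 11697 genes), the fit of 18 libraries 1 (8.83%) and that fit with Ddx3y 1 (8.98%). The 3 sets of libraries gave 2 (13.3%). No filter gave 1 replication and 1 mitosis gene higher in PS19, where 127 of all 22632 genes were higher. It gave 0 replication genes higher in adult microglia, where 4671 of 26599 genes were. Total-count scaling gave 0 of the latter, where 2928 of 13004 genes were higher, and 0 replication and 1 mitosis gene with a called difference, as limma-voom did. The difference was called higher for 252 of all 12352 genes under total-count scaling and for 213 with limma-voom. Replication genes higher in adult microglia were 2 with all adult against all cultured libraries (4848 of all 13722 genes) and 2 against vehicle alone (3276 of 10704). They were 0 against IkbkbWT alone (3254 of 11916) and 0 against Ikbkb+/+ alone (3235 of 10972).

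The directions that turned in adult microglia were Ccnd2 (0.89) and Mcm3 (-0.0919) against Ikbkb+/+ alone, Pcna (0.0293) against IkbkbWT alone, and Cdkn1b against vehicle alone (-0.64) and under total-count scaling (-0.0428). With tau they were uncalled genes, namely Pcna (-0.0367), Mcm2 (-0.0344) and Rb1 (-0.12) under total-count scaling, Mcm2 in thinned counts (-0.0199), Mcm5 without single libraries (-0.17 to 0.0402) and Rb1 likewise (-0.0357 to 0.0811). In IkbkbCA Ccnd2 turned with the 3 sets (0.11), limma-voom (0.17), Ddx3y (0.74) and single libraries left out (-0.55 to 0.30), Ccnd3 with total-count scaling (-0.0320) and single libraries (-0.0686 to 0.12), Mcm2 with single libraries (-0.38 to 0.0258) and Cdkn1b with DESeq2 (0.00473), RLE (0.00543), Ddx3y (0.0721), thinning (0.0814) and single libraries (-0.13 to 0.0527). In PS19 limma-voom turned Ccnd2 (-0.00928), Mki67 (-0.27), Top2a (-0.0627) and Ccnb1 (-0.48), thinning turned Cdkn1b (0.0610) and Rb1 (0.13), age as a covariate turned Rb1 (0.14) and single libraries turned Ccnd2 (-0.26 to 0.21), Mki67 (-0.44 to 0.84), Top2a (-0.50 to 0.70), Ccnb1 (-1.09 to 0.79), Birc5 (-0.15 to 1.04), Ccna2 (-0.25 to 1.06), Rb1 (-0.29 to 0.14). In the difference between the Ikbkb genotypes, thinning turned Mki67 (-0.13) and single libraries turned Ccnd1 (-0.14 to 0.0885).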
